A study of Homo sapiens with 9 samples.

Results

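The genes described here are 3 HOX cluster genes, HOXB2, HOXB6 and HOXC8, with MEIS2, a DNA-binding cofactor of HOX proteins, and CDX2, a transcription factor that acts upstream of HOX genes. The 5 genes were chosen with earlier results of these data known, and all probes that carry one of these 5 names in the array annotation were taken. These are 6 of the 20127 probes in the authors' normalized table, 2 of them for MEIS2, and 5 of 11991 named genes that could be tested. All 6 probes passed the filter on detection. RNA abundance was measured on Illumina BeadChip arrays in 3 groups of 3 arrays, all derived from the human embryonic stem cell line H9. The first group is perivascular progenitors, the adherent cells that grew on collagen in the endothelial medium EGM2-MV from embryoid bodies dissociated on day 6, and were passaged, so they had been exposed to BMP4 before plating. The second is embryoid bodies, suspended stem cell aggregates kept with 40 nM BMP4 for 6 days. The third is undifferentiated H9 cells (hESC), grown on a layer of mouse embryonic fibroblasts with 4 ng/ml bFGF. Neither the mouse cells nor bFGF are given for the other groups in the labels, and H9 is 1 cell line.

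HOX genes encode homeodomain transcription factors and lie in clusters, in which the order of the genes along the chromosome follows the order in which they are used along the head-to-tail axis of the embryo. In pluripotent cells the clusters are held silent by Polycomb complexes, and retinoic acid, WNT and FGF signals open them through factors such as CDX2. HOX proteins bind DNA together with TALE homeodomain proteins (MEIS and PBX), and mesenchymal and vascular wall cells taken from different body sites keep different sets of active HOX genes.

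HOXB2 and HOXB6 lie in the HOXB cluster on chromosome 17. HOXB2 stands between HOXB1 and HOXB3, and HOXB6 between HOXB5 and HOXB7. HOXC8 lies in the HOXC cluster on chromosome 12, next to HOXC9 on one side and to HOXC6, HOXC5 and HOXC4 on the other. MEIS2 is on chromosome 15 and CDX2 on chromosome 13. Promoter windows of 300 bases, from 250 before to 50 after an annotated start, were at hand for MEIS2 and CDX2. A MEIS2 window and the CDX2 window are shown because both genes act with or upstream of HOX genes, so that the sites of HOX, MEIS and CDX proteins can be looked for in them. The sequences are RefSeq's, build GRCh38.p14, at chr15:37098647-37098946 and chr13:27969266-27969565, both on the minus strand. Capitals mark a match to TGATTNAT, the joint site of HOX and PBX proteins.
MEIS2 promoter: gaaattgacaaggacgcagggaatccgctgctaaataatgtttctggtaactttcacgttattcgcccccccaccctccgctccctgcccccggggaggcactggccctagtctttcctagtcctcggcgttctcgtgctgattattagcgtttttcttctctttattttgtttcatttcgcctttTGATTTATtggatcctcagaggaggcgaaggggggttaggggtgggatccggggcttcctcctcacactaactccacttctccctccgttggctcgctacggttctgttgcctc
CDX2 promoter: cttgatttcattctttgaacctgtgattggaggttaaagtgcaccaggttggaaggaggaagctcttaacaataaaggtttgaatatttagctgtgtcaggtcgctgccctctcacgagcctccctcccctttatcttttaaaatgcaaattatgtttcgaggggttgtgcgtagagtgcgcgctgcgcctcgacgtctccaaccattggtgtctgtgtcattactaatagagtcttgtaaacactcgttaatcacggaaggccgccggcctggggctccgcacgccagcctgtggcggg
The MEIS2 match, TGATTTAT, begins 64 bases before the start. Both strands were searched for TTTATG (CDX), TGATTNAT (HOX with PBX), TGACAG (MEIS), TAATTA (homeodomain proteins) and the direct repeat bound by retinoic acid receptors. Of 35116 windows of the same length, 2.82% held TGATTNAT, 10.6% TTTATG, 15.8% TGACAG, 4.84% TAATTA and 0.0057% the retinoic acid site. No other match was found in these windows, nor any in the second MEIS2 window, at chr15:37099057-37099356. These matches describe letters and show no binding.

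Between 17964 and 21172 probes were detected per array. Array 3 of hESC and array 2 of the progenitors stood apart from the other arrays of their groups. Arrays 1 and 2 of hESC differed by 2-fold or more at 8 of 21683 probes, and hESC 3 differed from them at 681 and 656. Progenitor arrays 1 and 3 differed at 74 probes, and progenitor 2 differed from them at 1093 and 985. Embryoid body arrays differed at 22 to 106 probes. The labels do not say whether the arrays of a group came from separate cultures, so p-values measure the spread between these arrays, which may be technical. Of 6 tested pericyte and mural genes, 3 were higher and 1 lower in progenitors than in hESC, and 4 were higher and 1 lower than in embryoid bodies. PDGFRB, ACTA2 and ANPEP were higher in both comparisons, whereas the contractile gene CNN1 was lower in both (log2 difference -1.82 against hESC and -2.10 against embryoid bodies). TAGLN was not called against hESC (0.39), nor was the pericyte marker RGS5 in either comparison (-0.81 and -0.54). The summed linear level of the 6 genes was 19900 to 24100 in progenitors, 4800 to 4890 in embryoid bodies and 7340 to 12400 in hESC. POU5F1, SOX2, NANOG and L1TD1, which mark pluripotent cells, were not detected on any progenitor array. On hESC 3, NANOG was not detected either (log2 intensity 5.23, against 11.23 and 11.18 on hESC 1 and 2), whereas POU5F1 was at 12.83, 12.81 and 12.92 on hESC 3, 1 and 2. The embryoid bodies kept these markers. With LIN28A and DNMT3B, all 6 tested were detected on every embryoid body array, and 0 of 6 were called against hESC (3.08% of named genes were). Their summed level was 69400 to 69800 in embryoid bodies and 65500 to 77400 in hESC.

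All 5 genes were higher in the progenitors than in both other groups, and none of them was called different between embryoid bodies and hESC. The fitted folds over hESC were 26.4 for the brighter MEIS2 probe, 15.8 for HOXC8, 7 for HOXB2, 2.90 for CDX2 and 2.65 for HOXB6. Without hESC 3 they were 11, 13.9, 4.03, 1.95 and 2.54 for the same genes, so the order of the genes changed with this array. A probe is called changed here where limma's adjusted p is under 0.05, with Benjamini-Hochberg adjustment over all probes, and the change is at least 2-fold. By this rule 6 of 6 probes were higher in progenitors than in hESC, where 14.1% of all probes were called higher, and 6 of 6 were higher than in embryoid bodies, where 14.7% were. For 6 of 6 probes every progenitor array lay above every array of the other group, which held for 31.5% of all probes against hESC and 31.6% against embryoid bodies. These counts are no test of HOX genes, since the members were chosen with earlier results of these data known. HOXC8 and the dimmer MEIS2 probe also passed the detection filter only through the progenitor arrays, which favours higher calls there. In embryoid bodies against hESC, 0 of 6 probes were called by limma, where 2.72% of all probes were called, and 0 had an unadjusted p under 0.05, where 31.8% of all probes did. This comparison carries the spread that hESC 3 adds, and values without it are given below for HOXB2, MEIS2 and CDX2. In the authors' normalized values the log2 differences from hESC were smaller, at 3.99 for MEIS2, 2.63 for HOXC8, 1.96 for HOXB2, 0.97 for CDX2 and 0.78 for HOXB6. The 2 progenitor comparisons share the progenitor arrays. In whole cultures, fewer cells of a type and less RNA per cell cannot be told apart.

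**Figure D1:**
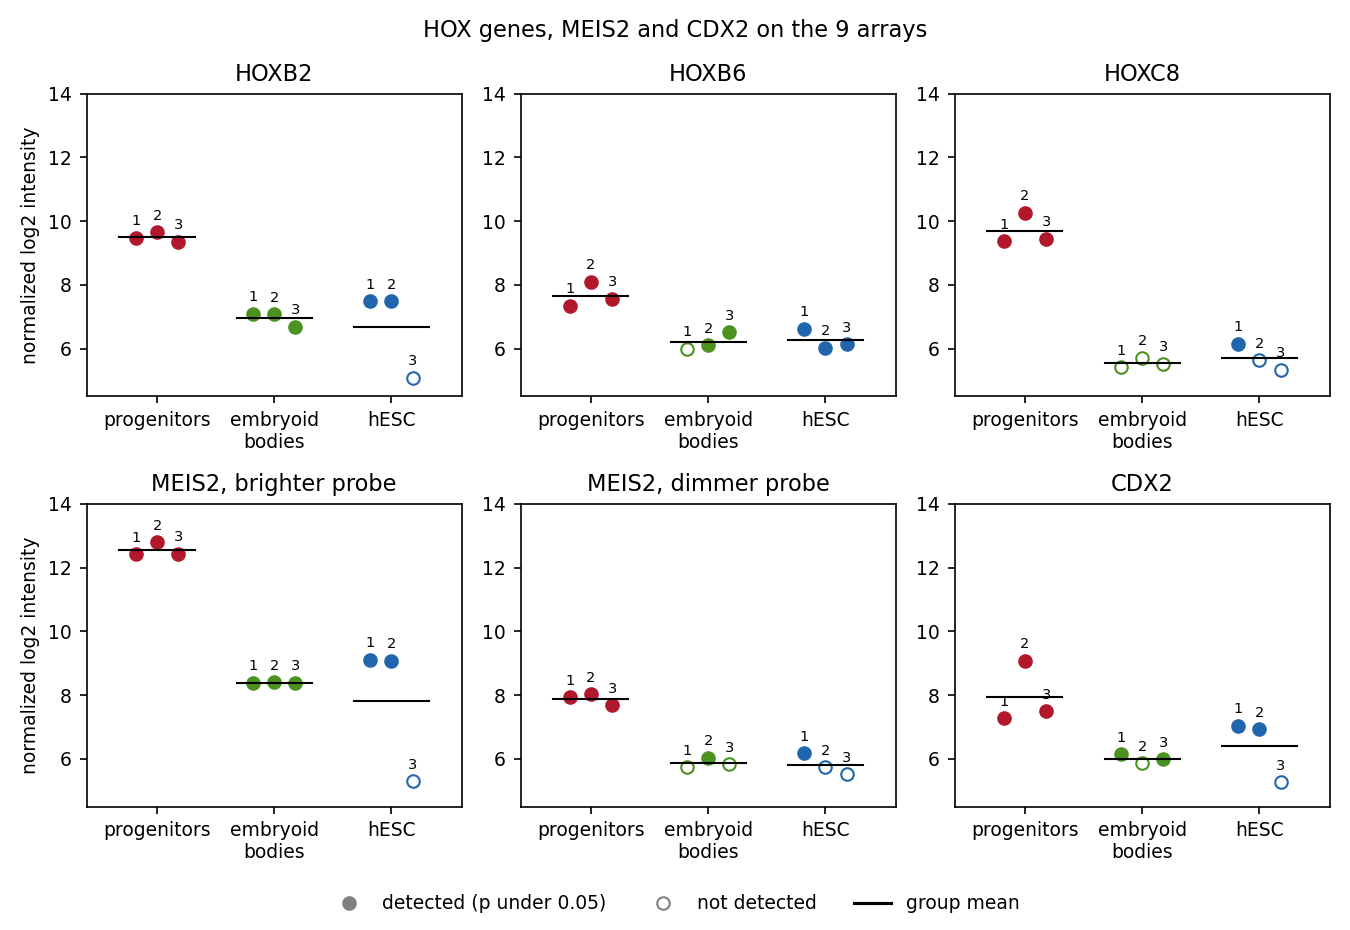
Normalized log2 intensity (vertical axis) of the 6 probes on each array of progenitors, embryoid bodies and hESC. Each point is an array with its number, open points were not detected, and lines are group means. Every progenitor array lies above every other array for all 6 probes, and hESC 3 lies far below hESC 1 and 2 for HOXB2, CDX2 and the brighter MEIS2 probe.

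HOXB2, a gene near the 3′ end of its cluster that patterns the hindbrain in mice, had log2 intensities of 9.47, 9.65 and 9.35 on the progenitor arrays. They were 7.10, 7.08 and 6.69 on the embryoid body arrays and 7.48, 7.48 and 5.09 on the hESC arrays. The progenitor arrays lay close together and above all others, and the groups of embryoid bodies and hESC overlapped because hESC 3, on which HOXB2 was not detected, lay far below hESC 1 and 2. The mean was 9.49 ± 0.15 in progenitors, 6.96 ± 0.23 in embryoid bodies and 6.68 ± 1.38 in hESC (SD, n = 3 each). The log2 difference of progenitors minus hESC was 2.81 (SE 0.54, 7-fold, limma adjusted p = 0.00146), and that of progenitors minus embryoid bodies was 2.53 (SE 0.54, 5.79-fold, limma adjusted p = 0.00266). HOXB2 was thus detected on 5 of 6 embryoid body and hESC arrays and was higher still in progenitors. For embryoid bodies minus hESC the log2 difference was 0.27, with a 95% interval of -0.95 to 1.5 (limma adjusted p = 0.779). Without hESC 3 it was -0.52 (limma adjusted p = 0.05), and progenitors minus hESC was 2.01, or 4.03-fold (limma adjusted p = 1.06e-05). With near-identical arrays averaged to 1 column each, the call of HOXB2 in progenitors against embryoid bodies was lost (2.57, limma adjusted p = 0.0959).

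HOXB6, which lies in the middle of the same cluster and marks lateral plate mesoderm in mouse embryos, had overlapping levels in embryoid bodies and hESC. Its log2 intensities were 7.34, 8.09 and 7.56 in progenitors, 6.00, 6.11 and 6.51 in embryoid bodies, and 6.62, 6.02 and 6.13 in hESC. The progenitor arrays lay above all others, with progenitor 2 highest, and those of the other groups overlapped. Embryoid body 1 was the array on which HOXB6 was not detected. Means were 7.66 ± 0.38 in progenitors, 6.21 ± 0.27 in embryoid bodies and 6.26 ± 0.32 in hESC (SD, n = 3 each). The log2 difference was 1.41 against hESC (SE 0.23, 2.65-fold, limma adjusted p = 0.000513) and 1.46 against embryoid bodies (SE 0.23, 2.75-fold, limma adjusted p = 0.000398). Embryoid bodies minus hESC gave -0.05, with a 95% interval of -0.57 to 0.47 (limma adjusted p = 0.91). The size of the change depended on the background correction. In the authors' normalized values it was 0.78 against hESC and 0.80 against embryoid bodies, and without background correction 0.73 and 0.75, with adjusted p from 0.000338 to 0.000574, so that HOXB6 fell under the 2-fold limit there.

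HOXC8, which patterns the thoracic skeleton in mice and is used by cells of the trunk, was a gene near background in embryoid bodies and hESC. Its log2 intensities were 9.36, 10.26 and 9.44 in progenitors, 5.42, 5.71 and 5.53 in embryoid bodies, and 6.15, 5.63 and 5.33 in hESC. It was detected on all progenitor arrays, on no embryoid body array, and in hESC on array 1 alone. The mean was 9.69 ± 0.50 in progenitors, 5.55 ± 0.15 in embryoid bodies and 5.70 ± 0.41 in hESC (SD, n = 3 each). Where a probe was not detected on any array of a group, the fold is a lower bound, taken against the lowest signal of the probes detected on those arrays. HOXC8 was at least 13-fold higher in progenitors than in embryoid bodies (fitted log2 difference 4.13, limma adjusted p = 9.47e-07). Against hESC the log2 difference was 3.98 (SE 0.27, 15.8-fold, limma adjusted p = 1.26e-06). Embryoid bodies minus hESC gave -0.15, with a 95% interval of -0.75 to 0.45 (limma adjusted p = 0.754), between groups that were mostly below detection.

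MEIS2, a TALE homeodomain protein that binds DNA with HOX and PBX proteins, was read by a pair of probes. The brighter one had log2 intensities of 12.41, 12.79 and 12.43 in progenitors, 8.39, 8.40 and 8.39 in embryoid bodies, and 9.10, 9.07 and 5.29 in hESC. Progenitors lay far above the rest, the embryoid body arrays were nearly equal, and hESC 3, on which the probe was not detected, lay far below hESC 1 and 2. The means were 12.54 ± 0.22 in progenitors, 8.39 in embryoid bodies and 7.82 ± 2.19 in hESC (SD, n = 3 each). The log2 difference was 4.72 against hESC (SE 0.84, 26.4-fold, limma adjusted p = 0.000886) and 4.15 against embryoid bodies (SE 0.84, 17.8-fold, limma adjusted p = 0.00193). Without hESC 3 the difference from hESC was 3.46, or 11-fold (limma adjusted p = 1.76e-07). With near-identical arrays averaged, the difference from embryoid bodies was 4.21 with a limma adjusted p of 0.0855.

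The dimmer MEIS2 probe ran the same way in the progenitor comparisons, with smaller differences. It had log2 intensities of 7.93, 8.03 and 7.68 in progenitors, 5.74, 6.03 and 5.83 in embryoid bodies, and 6.18, 5.73 and 5.52 in hESC. It was detected on all progenitor arrays and on 1 of 3 arrays in each other group. Its log2 difference was 2.07 against hESC (4.19-fold, limma adjusted p = 6.59e-06) and 2.01 against embryoid bodies (4.04-fold, limma adjusted p = 7.58e-06). For embryoid bodies minus hESC the brighter probe gave 0.57, with a 95% interval of -1.33 to 2.47 (limma adjusted p = 0.696), and the dimmer probe 0.06 (limma adjusted p = 0.868). Without hESC 3 the brighter probe gave -0.69 (limma adjusted p = 0.01), which is 1.61-fold lower in embryoid bodies and under the 2-fold limit.

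CDX2, which directs trunk HOX genes, the intestine and, in mice, the trophectoderm, had a difference from hESC that rested on single arrays. Its log2 intensities were 7.28, 9.07 and 7.49 in progenitors, 6.14, 5.86 and 5.99 in embryoid bodies, and 7.04, 6.93 and 5.26 in hESC. Progenitor 2 lay far above progenitors 1 and 3, which were just above hESC 1 and 2, and CDX2 was not detected on hESC 3 or embryoid body 2. The means were 7.95 ± 0.98 in progenitors, 6.00 ± 0.14 in embryoid bodies and 6.41 ± 1.00 in hESC (SD, n = 3 each). The log2 difference was 1.95 against embryoid bodies (SE 0.54, 3.87-fold, limma adjusted p = 0.0109) and 1.54 against hESC (SE 0.54, 2.90-fold, limma adjusted p = 0.0331). The call against hESC was lost without hESC 3 (0.96, limma adjusted p = 0.107), without progenitor 2 (0.97, limma adjusted p = 0.11) and without both (0.40, 1.32-fold, limma adjusted p = 0.0241). The call against embryoid bodies held without progenitor 2 (1.39, 2.62-fold, limma adjusted p = 0.0336) and was lost with near-identical arrays averaged (2.23, limma adjusted p = 0.134). Embryoid bodies minus hESC gave -0.42, with a 95% interval of -1.64 to 0.80 (limma adjusted p = 0.653). Without hESC 3 it was -0.99, or 1.99-fold lower in embryoid bodies (limma adjusted p = 0.183), and without hESC 3 and progenitor 2 together it was again -0.99 (limma adjusted p = 0.0012).

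Markers of other cells that use CDX2 were set beside it. Of 12 trophoblast and amnion genes 6 were tested, and their summed level was 509 to 1000 in progenitors, 4770 to 5170 in embryoid bodies and 1230 to 3310 in hESC. In progenitors 1 of the 6 was higher and 3 lower than in hESC, and 1 was higher and 5 lower than in embryoid bodies. The higher one was GATA2 (log2 difference 2.35 against hESC and 1.32 against embryoid bodies). GATA2, TFAP2A and ISL1 were detected on all progenitor arrays, and TFAP2C and GABRP on none. Of 8 hindgut and intestine genes FOXA2 alone was tested, and it was not detected on any progenitor array. On hESC 3, where CDX2, HOXB2 and MEIS2 were low, the primitive streak gene TBXT was at 6.15, against 9.50 and 9.54 on hESC 1 and 2, and FOXA2 at 6.47, against 9.63 and 9.44. Trophoblast and amnion genes were low on this array as well. TFAP2A was at 5.57 on hESC 3 and not detected, against 7.54 and 7.51 on hESC 1 and 2. HAND1 was at 8.40, against 10.57 and 10.71. TFAP2C and ISL1 were also lowest on hESC 3, whereas GABRP lay between its levels on hESC 1 and 2. GATA2 was not detected on any hESC array. In progenitors, HAND1 was at 8.91 on progenitor 2, where CDX2 was high, against 5.87 and 5.85 on progenitors 1 and 3. The part of these cells in the levels of CDX2 was not tested.

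**Figure D2:**
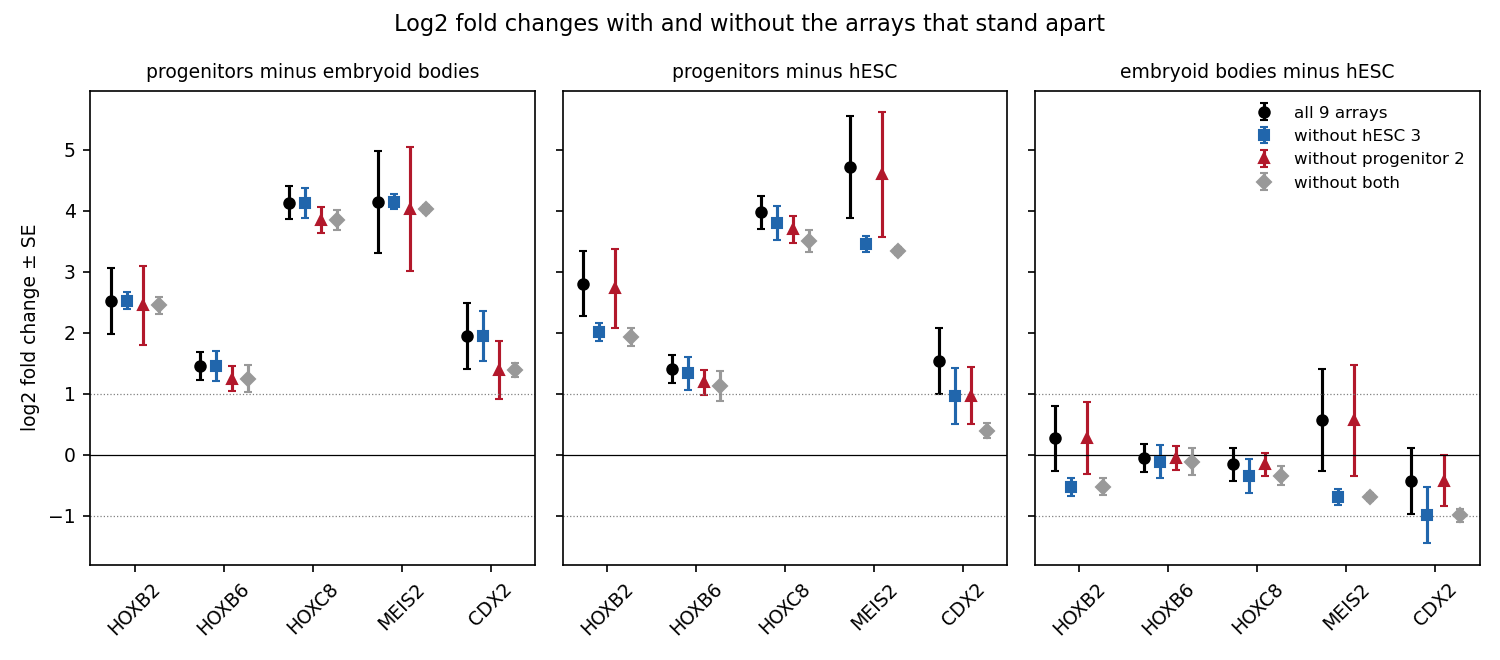
Log2 fold change with its SE (vertical axis) of the 5 genes for progenitors minus embryoid bodies, progenitors minus hESC and embryoid bodies minus hESC, over all 9 arrays and without hESC 3, progenitor 2 or both. Dotted lines mark 2-fold. Leaving out hESC 3 turns HOXB2 and MEIS2 below 0 for embryoid bodies minus hESC (-0.52 and -0.69), and leaving out both arrays takes CDX2 to 0.40 for progenitors minus hESC.

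The arrays that stood apart did so to different degrees from gene to gene. On hESC 3 the brighter MEIS2 probe differed from the mean of hESC 1 and 2 by -3.80 on the log2 scale, and 0.0415% of all probes were as low or lower. HOXB2 differed by -2.39 (0.194% of probes as low) and CDX2 by -1.72 (0.48% as low). HOXC8, the dimmer MEIS2 probe and HOXB6 differed by -0.56, -0.43 and -0.19. In all, 1.77% of probes were 2-fold or more lower on hESC 3 and 1.13% higher. On progenitor 2, CDX2 lay 1.69 above the mean of progenitors 1 and 3 (0.369% of probes as high), HOXC8 0.86, HOXB6 0.63, the brighter MEIS2 probe 0.37 and HOXB2 0.24 above it. On this array 2.30% of probes were 2-fold or more higher and 2.12% lower.

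**Figure D3:**
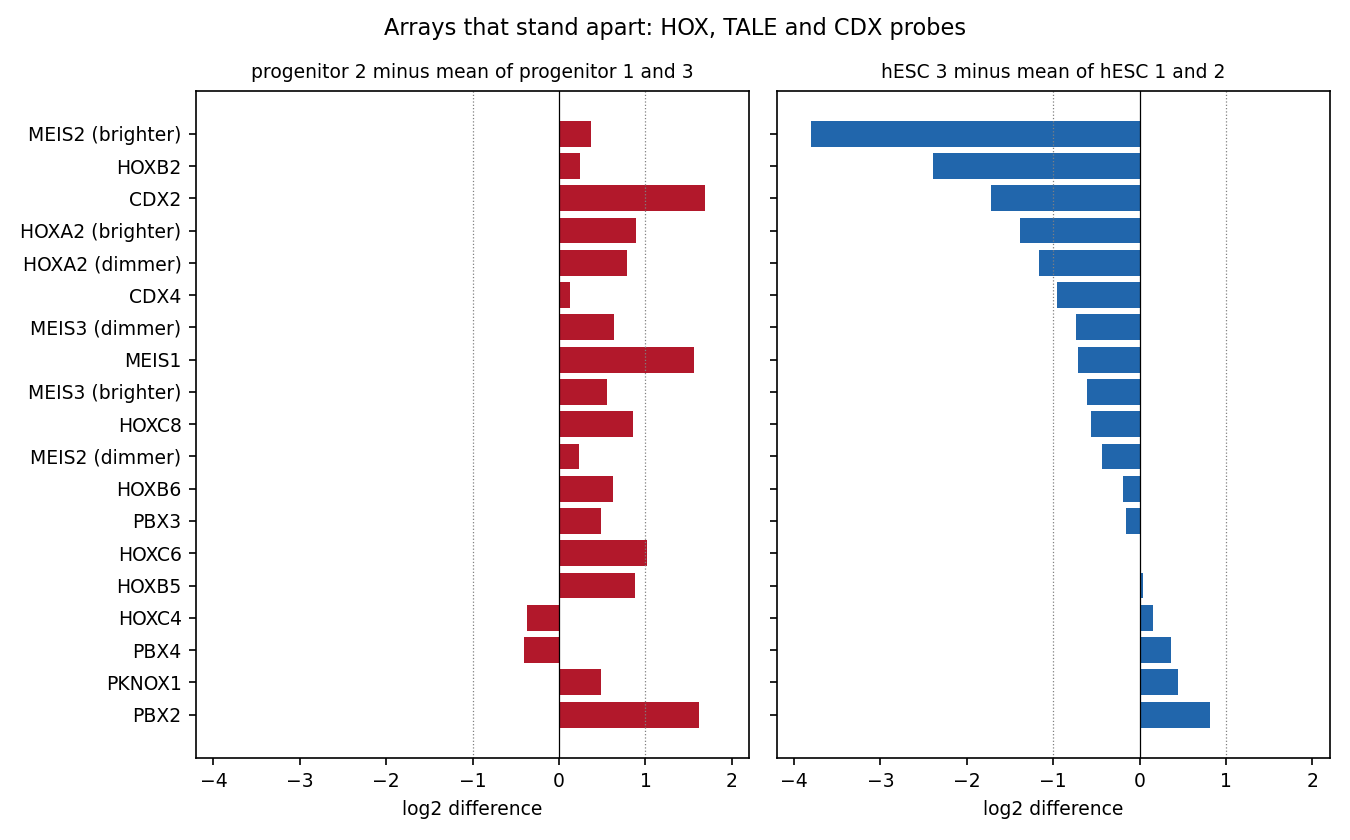
Log2 difference (horizontal axis) of progenitor 2 from the mean of progenitors 1 and 3, and of hESC 3 from the mean of hESC 1 and 2, for each HOX, TALE and CDX probe. Dotted lines mark 2-fold. The brighter MEIS2 probe (-3.80), HOXB2 (-2.39) and CDX2 (-1.72) are the lowest on hESC 3, and CDX2 (1.69) is the highest on progenitor 2.

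Of 39 HOX cluster genes 7 could be tested, the 3 members and HOXA2, HOXB5, HOXC4 and HOXC6. Of these, HOXC8 passed the detection filter only through the progenitor arrays. Over all named genes, with 1 probe each, 14.7% were called higher and 19% lower in progenitors against hESC, 15.3% and 18.9% against embryoid bodies, and 1.5% and 1.58% in embryoid bodies against hESC. In progenitors 5 of the 7 were higher and 0 lower against hESC, with a median log2 difference of 2.81 beside 0.01 over all probes, and 5 were higher and 0 lower against embryoid bodies, with a median of 2.53 beside -0.03. The counts were 5 and 0 in both comparisons also without hESC 3, without progenitor 2 and without both. In the authors' values they were 4 and 0 in both, with medians of 1.96 against hESC and 1.80 against embryoid bodies. The 5 genes called over all arrays include the 3 members, which were chosen with earlier results known. All these medians are the values of HOXB2, a member, so counts and medians of the 7 are no test of HOX genes. Of the 4 genes outside the members, HOXB5 and HOXC6 were higher in both comparisons, and HOXA2 and HOXC4 were not called. Whether the HOXB and HOXC probes lie in stretches shared with antisense RNAs or with transcripts of neighbouring HOX genes was not checked. HOXC6, the neighbour of HOXC8 and a gene of the thoracic region, had log2 intensities of 10.70, 11.75 and 10.76 in progenitors, 6.24, 6.41 and 6.80 in embryoid bodies, and 6.17, 6.22 and 6.21 in hESC. All progenitor arrays lay far above the others, and the log2 difference was 4.87 against hESC (limma adjusted p = 2.99e-07) and 4.59 against embryoid bodies (limma adjusted p = 4.36e-07). HOXB5, the neighbour of HOXB6, had 9.49, 10.29 and 9.32 in progenitors, 6.41, 6.03 and 5.85 in embryoid bodies, and 6.15, 6.21 and 6.22 in hESC. Its groups did not overlap between progenitors and the rest, with log2 differences of 3.51 against hESC (limma adjusted p = 1.49e-06) and 3.60 against embryoid bodies (limma adjusted p = 1.20e-06).

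HOXA2, which sets the identity of the second branchial arch in mice, and HOXC4, at the 3′ end of the HOXC cluster, were not called in any comparison. HOXC4 was at 6.00, 5.70 and 6.14 in progenitors, 6.16, 6.24 and 6.00 in embryoid bodies, and 5.96, 5.93 and 6.11 in hESC. These levels lie near the lowest signal of detected probes, and HOXC4 was detected on 1 of 3 progenitor arrays and all arrays of the other groups. The brighter HOXA2 probe was at 6.49, 7.20 and 6.13 in progenitors, 6.79, 6.56 and 6.51 in embryoid bodies, and 7.18, 7.29 and 5.85 in hESC, with overlapping groups. Its log2 difference was -0.17 against hESC and -0.01 against embryoid bodies. The difference from hESC depended on single arrays. It was -0.63 without hESC 3 (limma adjusted p = 0.0805) and -0.93 without hESC 3 and progenitor 2 together (limma adjusted p = 0.00132), under the 2-fold limit. In embryoid bodies against hESC 0 of 7 HOX genes changed by limma, 0 had an unadjusted p under 0.05 (31.8% over all probes), and the median log2 difference was -0.05. This depended on the arrays in the fit. Without hESC 3 alone, HOXA2 was -0.61 (limma adjusted p = 0.165) and HOXB2 -0.52 (limma adjusted p = 0.05). Without hESC 3 and progenitor 2 together, a setting chosen after seeing the data, HOXA2 (-0.61, limma adjusted p = 0.0145) and HOXB2 (-0.52, limma adjusted p = 0.0252) were lower, both under 2-fold. Progenitor 2 is in neither group of this comparison, and leaving it out changes the shared estimate of the spread, not the difference. In the fit without both arrays 7527 of 21683 probes had an adjusted p under 0.05. Of 18 noncoding RNAs of the HOX clusters HOTTIP alone was tested, with log2 differences of 0.61 against hESC and 0.73 against embryoid bodies, both under 2-fold.

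Among 7 tested TALE genes, MEIS1 and MEIS2 were higher in progenitors in both comparisons and the other 5 were not called. MEIS1, a partner of HOX proteins in blood stem cells and leukaemia, had log2 intensities of 10.01, 11.58 and 10.04 in progenitors, 6.92, 7.42 and 7.46 in embryoid bodies, and 7.19, 7.13 and 6.45 in hESC. Its log2 difference was 3.62 against hESC (limma adjusted p = 3.94e-05) and 3.28 against embryoid bodies (limma adjusted p = 7.40e-05). PBX2, PBX3, PBX4, MEIS3 and PKNOX1 differed from hESC by -0.66 to 0.64 on the log2 scale and from embryoid bodies by -0.67 to 0.74. CDX4, the other tested CDX gene, was lower in progenitors, where CDX2 was higher. It had log2 intensities of 4.90, 5.04 and 4.91 in progenitors, not detected on any of them, 7.44, 7.41 and 7.46 in embryoid bodies, and 6.47, 6.39 and 5.47 in hESC. CDX4 was 2.51-fold higher in embryoid bodies than in hESC (log2 difference 1.33, limma adjusted p = 0.00553), at least 2.58-fold lower in progenitors than in embryoid bodies (limma adjusted p = 1.06e-05) and at least 1.02-fold lower than in hESC (limma adjusted p = 0.00164). In the authors' values CDX4 was called against embryoid bodies alone, with log2 differences of -1.04 for progenitors minus embryoid bodies, -0.35 for progenitors minus hESC and 0.69 for embryoid bodies minus hESC.

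**Figure D4:**
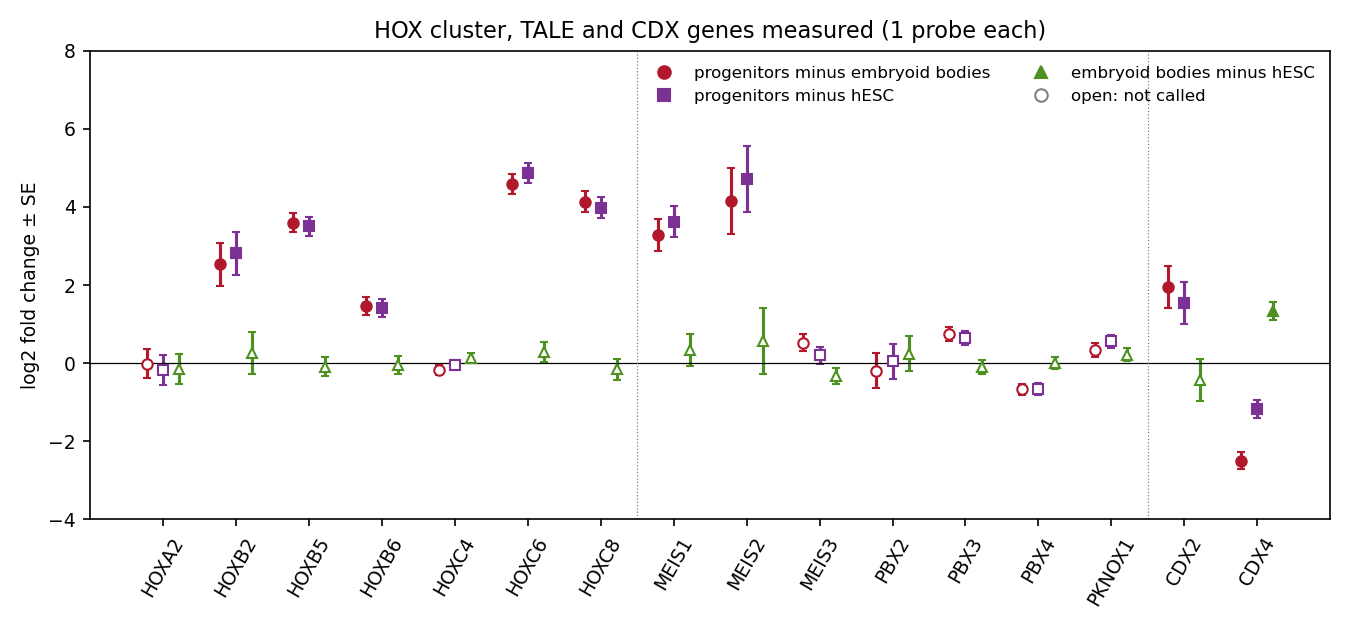
Log2 fold change with its SE (vertical axis) of the 7 HOX, 7 TALE and 2 CDX genes tested, for progenitors minus embryoid bodies (circles), progenitors minus hESC (squares) and embryoid bodies minus hESC (triangles). Filled symbols were called. HOXB2, HOXB5, HOXB6, HOXC6, HOXC8, MEIS1, MEIS2 and CDX2 are higher in progenitors, and CDX4 is the 1 of the 16 called in embryoid bodies against hESC in this fit over all 9 arrays (it was not called in the authors' values).

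Genes that act on HOX clusters were counted from lists of their pathway. Of 12 tested retinoic acid genes, 6 were higher and 2 lower in progenitors than in hESC (median 1.05), and 7 were higher and 2 lower than in embryoid bodies (median 1.17). Without progenitor 2 the count against embryoid bodies was 4 higher and 2 lower, and in the authors' values 3 were higher against hESC. CYP26A1, which breaks down retinoic acid, was at least 40.5-fold lower in progenitors than in hESC and at least 15.8-fold lower than in embryoid bodies by its brighter probe. Its dimmer probe was not called against hESC (log2 difference -0.84) or embryoid bodies (-0.31). RARB, a retinoic acid receptor that is also a target, was at least 3.34-fold higher than in hESC by its brighter probe. Its dimmer probe was not called against hESC (log2 difference 0.87) or embryoid bodies (0.77). STRA6, the receptor for retinol uptake, was higher by 2.07 on the log2 scale against hESC and 2.12 against embryoid bodies. In embryoid bodies against hESC, ALDH1A1, which makes retinoic acid, was higher by 1.72 and the brighter CYP26A1 probe differed by -1.35 (dimmer probe -0.53, not called). Of 20 tested Polycomb genes 2 were higher and 7 lower against hESC (median -0.28), and 3 higher and 7 lower against embryoid bodies (median -0.30). The largest changes against hESC were falls of CBX2 (-3.67, limma adjusted p = 3.86e-09), JARID2 (-3.62, 1.37e-07) and PHC1 (-3.20, 1.22e-07), which are subunits or partners of the Polycomb complexes, while PHC2 was at least 5.54-fold higher than in embryoid bodies. The dimmer CBX2 probe, not detected on any progenitor array, was not called against hESC (-0.78) or embryoid bodies (-0.46). In embryoid bodies against hESC 0 of 20 were called by limma, and 8 had an unadjusted p under 0.05, beside 31.8% of all probes.

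Among 10 tested trithorax genes and H3K27 demethylases, WDR5 was lower against hESC (-1.03) and KDM6A against embryoid bodies (-1.37). The WDR5 call was lost without both hESC 3 and progenitor 2, and the dimmer WDR5 probe was not called against hESC (-0.23). Of 10 other regulators 2 were higher and 6 lower against hESC, and 2 were higher and 5 lower against embryoid bodies. The largest changes against hESC were those of LIN28A (-6.66), an RNA-binding protein of stem cells, WNT5A (4.81), a WNT ligand of the outgrowing body axis, and ZNF503 (3.92), a zinc finger repressor. OTX2 and HESX1, which mark the HOX-free head region, were at least 19.2- and 15.3-fold lower in progenitors than in hESC and at least 5.54- and 6.10-fold lower than in embryoid bodies. Both were also lower in embryoid bodies than in hESC, by log2 differences of -1.79 and -1.33. Of 6 tested mesenchymal and fibroblast markers 5 were higher and 1 lower in progenitors in both comparisons. The lower one was THY1, a surface marker of fibroblasts and of stem cells (log2 difference -2.91 against hESC, limma adjusted p = 1.47e-05, and -2.77 against embryoid bodies). The summed level of the 6 genes was 85100 to 119000 in progenitors, 8670 to 9120 in embryoid bodies and 13500 to 19500 in hESC, and their part in the HOX levels was not tested.

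The members' levels followed each other over the 9 arrays, as is set in large part by the difference between progenitors and the rest that they share. Pearson's r was highest between HOXB2 and MEIS2 (0.996, and 0.994 over 8 arrays without hESC 3) and lowest between HOXB2 and HOXB6 (0.846). Without hESC 3 the HOXB2 and HOXB6 pair had an r of 0.909, and MEIS2 and CDX2 then had the lowest (0.843, n = 8). HOXC8 and HOXB6 had an r of 0.966 over 9 arrays. Among 11986 other named genes, those most like HOXC8 over the 9 arrays were PDGFRA, EFEMP2 and C1QTNF6 (r = 0.998 each). For MEIS2 they were B3GLCT, IFITM2 and GPCPD1 (0.992 each), and for HOXB2 they were DNAL4 (0.991), KLHL22 (0.991) and EFNB1 (0.99). For HOXB6 they were ARSA (0.984), ZBTB16 (0.983) and ZHX3 (0.981), and for CDX2 they were IGDCC4 (0.986), TMEM44 (0.982) and LINC01278 (0.981).

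**Figure D5:**
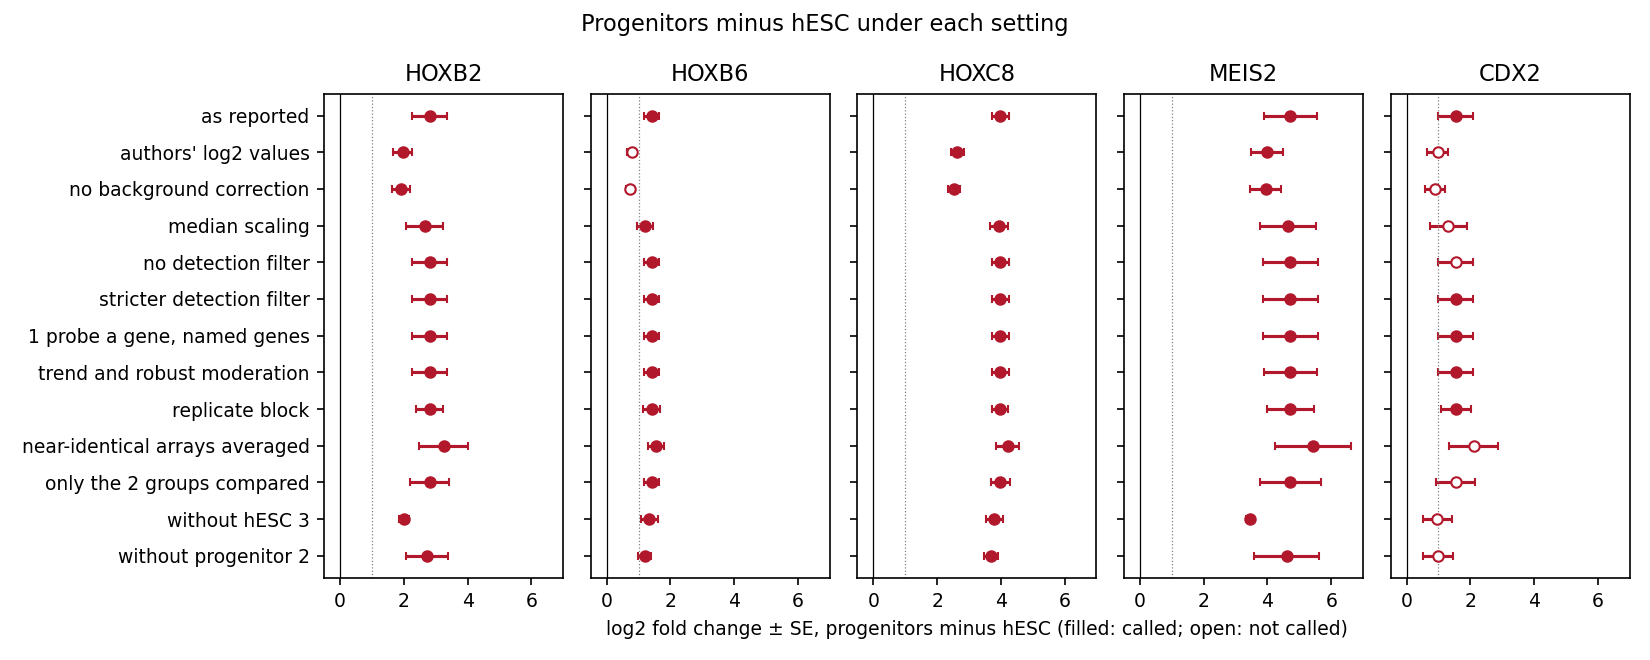
Log2 fold change with its SE (horizontal axis) of progenitors minus hESC for the 5 genes under each processing setting. Filled points were called, and the dotted line marks 2-fold. HOXB2, HOXC8 and MEIS2 stay called under every setting drawn, HOXB6 falls to 0.78 and 0.73 in the authors' values and without background correction, and CDX2 is not called in 8 of the settings drawn.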

How the data were processed

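RNA of 9 samples was hybridised to Illumina BeadChip arrays, which read each transcript with short probes. The deposited table of 47323 probes holds the mean bead intensity and a detection p-value for each array, and BeadStudio is named in the submitters' processing notes, with no version given. The authors also deposited log2 values of 20127 probes, which have the same quantiles on every array. The build behind the probes is not given in the sources used here.

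Intensities were background-corrected and quantile-normalized with neqc of limma 3.58.1 in R 4.3.3, with negative controls inferred from the detection p-values and an offset of 16. Probes with a detection p under 0.05 on at least 3 of 9 arrays were kept (21683). The script was tested on simulated data. Differences between the 3 groups were fitted by limma over all 9 arrays with no block, two-sided, with Benjamini-Hochberg adjustment over all 21683 probes. Probes were named from the platform annotation, updated by gene ID (15592 probes with 1 symbol). Lists count the probe of a gene with the highest mean.

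Members and lists were chosen with earlier results of these data known. Named are the members, every tested HOX cluster gene, up to 3 called genes with the largest change of each other list, and the 3 genes most correlated with each member. The number of arrays limits the precision. Alternatives were the authors' values, no background correction, median scaling, other filters, 1 probe a gene, another variance model, the replicate block, near-identical arrays averaged (under 1% of probes 2-fold apart), 2 groups alone, and each array left out.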

Additional observations from a re-analysis of the deposited data

How the results depend on the processing

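Of 300 alternative values for the 5 genes, with the brighter probe for MEIS2, 276 kept their direction and their side of the threshold, 16 lost the call and 8 changed sign. The sign changes were all in embryoid bodies minus hESC, where no difference was called. There HOXB2 was -0.52 and the brighter MEIS2 probe -0.69 without hESC 3 and also without hESC 3 and progenitor 2 together, a setting chosen after seeing the data. HOXB6 was 0.13 without hESC 1, 0.05 without embryoid body 1 and 0.00 without embryoid body 2, and HOXC8 was 0.07 without hESC 1. The dimmer MEIS2 probe, not among the 300, was -0.09 without hESC 3, with or without progenitor 2, and -0.03 without embryoid body 2. Over the fits without 1 array, embryoid bodies minus hESC ran from -0.52 to 0.67 for HOXB2 and -0.20 to 0.13 for HOXB6. It ran from -0.34 to 0.07 for HOXC8 and -0.99 to -0.10 for CDX2. For MEIS2 it ran from -0.69 to 1.22 by the brighter probe and -0.09 to 0.24 by the dimmer probe.

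HOXB6 was under 2-fold in progenitors against hESC and embryoid bodies in the authors' values (0.78 and 0.80) and without background correction (0.73 and 0.75). CDX2 in progenitors against hESC lost its call in the authors' values (0.97), without background correction (0.89), with median scaling (1.31, limma adjusted p = 0.077), without a detection filter (1.54, 0.0661), with near-identical arrays averaged (2.10, 0.0814), with 2 groups alone in the fit (1.54, 0.0672) and without hESC 3 and progenitor 2 (0.40). Without 1 array it ran from 0.96 to 1.87. With near-identical arrays averaged to 5 columns, which leaves 2 residual degrees of freedom, the calls against embryoid bodies were lost for HOXB2 (2.57, limma adjusted p = 0.0959), MEIS2 (4.21, 0.0855) and CDX2 (2.23, 0.134). HOXB2, HOXC8 and MEIS2 kept their calls against hESC in 60 of 60 alternative values.

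Of all probes 589 were called in embryoid bodies against hESC, and in progenitors 6391 were called against hESC and 6478 against embryoid bodies. The counts were 194, 3535 and 3658 in the authors' values, 196, 4020 and 4122 without background correction, and 371, 4043 and 4099 with 1 probe a gene. Median scaling shifted the median of all probes by -0.22 in embryoid bodies against hESC, with 149 higher and 765 lower (914 in all), against 278 and 311, and by -0.14 in progenitors against hESC, with 2524 higher and 4154 lower, against 3049 and 3342. Near-identical arrays averaged left 0 probes in embryoid bodies against hESC by limma, with 1710 at an unadjusted p under 0.05. The cause of these differences was not tested, except that fewer probes or arrays entered some fits.

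Arrays with the same number in different groups did not deviate together (correlations of -0.10 to 0.07). With so few arrays a group, this cannot exclude that equal numbers mark paired samples. With the replicate block 577, 6392 and 6480 probes were called, and the block changed no call of the 5 genes. Background limits HOXC8, which was detected on 0 of 3 embryoid body and 1 of 3 hESC arrays, the dimmer MEIS2 probe (1 of 3 in each) and CDX2 (2 of 3 in each). It also limits HOXB6, detected on 2 of 3 embryoid body and 3 of 3 hESC arrays, with levels near the lowest detected signal.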
